A study of Homo sapiens with 12 samples.

Results

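The regions described here are m6A peaks of Kasumi-1 cells that were annotated to an exon and overlapped a peak of the other condition. A peak was taken from the control or the WTAP-silenced list when its deposited annotation was exon, and when its exonic blocks shared at least 1 base with the blocks of any peak in the other list, strand ignored. By this rule 9608 of the 35341 control peaks and 9868 of the 35851 shWTAP peaks were members, 19476 of 71192 in all. In the peak annotation "exon" is the class left after both UTR classes, so it holds coding exons and every exon of a noncoding gene. The members were thus chosen by measured values, the positions of called peaks in both lists, and the overlap and enrichment are given only as a description.

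Kasumi-1 is an established acute myeloid leukaemia line with a RUNX1-RUNX1T1 fusion, labelled WT in genotype. All cells carried a stably introduced shRNA, against WTAP (shWTAP) or scrambled (control), delivered for WTAP by a lentiviral vector, and selection with 2 µg/ml puromycin began after 48 h and lasted at least 24 h. The 12 samples were 3 IP (anti-m6A immunoprecipitation) and 3 input samples of each condition, which the series calls biological replicates. No cells without an shRNA are among the samples used here, and the labels name no clone.

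m6A, a methyl group on adenosine, is written on RNA in the nucleus by METTL3 and METTL14 together with adaptors such as WTAP, VIRMA, RBM15, ZC3H13 and CBLL1. Reader proteins of the YTH and IGF2BP families bind it and alter the splicing, export, translation or decay of the RNA. In mRNA the mark is known to sit mostly near the stop codon, in the 3' UTR and in long internal exons, on adenosines within GGAC and related words, and long noncoding RNAs carry it too.

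In both lists, 2 microRNAs of myeloid cells lay wholly inside members, and their mature sequences are shown to identify the microRNAs encoded within these exons. They are from RefSeq on GRCh38.p14, 5' to 3', and capitals mark the seed, bases 2 to 8.
hsa-miR-142-5p: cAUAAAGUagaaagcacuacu
hsa-miR-142-3p: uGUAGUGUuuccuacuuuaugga
hsa-miR-223-5p: cGUGUAUUugacaagcugaguu
hsa-miR-223-3p: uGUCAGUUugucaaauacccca
The 4 seeds differ from each other. MIR142 lay in chr17:58330884-58332508, a peak of 1625 bases over the only exon of AC004687, whose interval was the same in both lists. Its deposited fold enrichment, the ratio of IP over input, was 79.0 in the control list and 65.2 in the shWTAP list. MIR223 lay in chrX:66018870-66018979, which is the hairpin's own 110 bases, annotated to exon 2 of its host gene MIR223HG, with an enrichment of 2.42 and 2.04. These lists describe poly(A) RNA, so the peaks say nothing of the mature microRNAs. Which transcript each of these peaks lies on was not tested.

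Of the 1560 hairpins in the RefSeq table, 25 lay wholly inside a member block in either list and 12 in both. Overlapping 3' UTR blocks held 24 hairpins in either list and overlapping 5' UTR blocks 17, so holding hairpins is not particular to the members. The other hairpins held by members in both lists were MIR1184-2, MIR3187, MIR4292, MIR4453, MIR5006, MIR637, MIR6501, MIR671, MIR8070 and MIR922. MIR6501 was in exon 3 of SON and MIR671 in exon 5 of CHPF2, which are coding genes. GGAC was found on the hairpin's own strand in 4 of the 25 (16.0%, 95% Wilson interval 6.4 to 34.7) and in 426 of all 1560 (27.3%, 25.2 to 29.6), and the interval of the members spans the value of all hairpins.

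Sequence at a gene's start could be read for members that cover it. The first 50 bases after the RefSeq start were inside members of both lists for 717 windows, of which 211 were exon of the same gene in both lists, and 41 of these held GGAC. To show what these words look like in strongly enriched noncoding exons, 30 bases are printed for 4 genes with GGAC, in capitals, and for 2 without it.
MIR1915HG: attgaGGACcagggtcgcgccgagaggccg
SPATA41: tgtatttaaagggatagtaactcGGACtcg
KDM7A-DT: gaggccccgtgaGGACacgcgcggtggtgg
MIR4453HG: ggtgggtgcgcctcgggccgcgGGACtcgc
NORAD: agttccggtccggcagagatcgcggagaga
LINC00963: ccggcccgtctcggggccctgagtcatcgc
In GRCh38.p14 they lie at chr10:21497231-21497260 (minus strand), chr15:100350184-100350213 (minus), chr7:140177261-140177290 (plus), chr4:152536284-152536313 (plus), chr20:36050931-36050960 (minus) and chr9:129488660-129488689 (plus). The fold enrichment of the peak over the start was 91.4 in control and 49.2 in shWTAP for MIR1915HG, and 60.9 and 30.4 for SPATA41. For KDM7A-DT it was 28.2 and 25.4, and for MIR4453HG 22.6 and 37.6. NORAD had 38.7 and 77.2 and LINC00963 had 24.4 and 28.5 with no GGAC in the stretch shown. A strong peak over a start was thus listed with and without the word in its first bases. The 4 with GGAC were taken from the most enriched of the 41, where TMEM202-AS1 (37.5 and 47.0) and LINC01971 (22.6 and 24.1) are not shown. The 2 without it were taken from the genes named by rule in this report, where TTN-AS1 (7.90 and 5.79) is not shown.

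Over the 717 windows, GGAC on the transcript's strand was in 21.2% (95% Wilson interval 18.4 to 24.3), beside 18.9% of all 35116 RefSeq start windows. GGACT, which contains it, was in 7.25% (5.57 to 9.39) beside 4.90%. Any of the 18 words that the general m6A consensus allows was in 47.1% (43.5 to 50.8) beside 49.6%. Of the 3, GGACT was the word whose share in member windows lay clear of the share in all windows, while exon peaks without an overlap had it in 6.07% (3.71 to 9.78) of 247 windows of either list, where members of either list had 6.56% (5.28 to 8.13). The 3' UTR peaks of both lists had it in 5.01% (3.62 to 6.88) of their 699 windows. Windows of 1 gene with several starts share sequence, a match is no site, and the sequence of the peaks away from starts was not used here.

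Members made up 79.2% (95% Wilson interval 78.52 to 79.96) of the 12124 exon peaks of the control list and 78.1% (77.3 to 78.8) of the 12642 of the shWTAP list. By the same rule 85.9% of the 3' UTR peaks overlapped in either list, and 80.6% and 84.1% of the 5' UTR peaks. There is 1 list per condition, so the intervals cover counting error only and no replicate of a peak exists. A single partner was found for 68.5% of the control and 69.0% of the shWTAP members. The largest overlap was with another exon peak for 91.2% and 89.3%, and with a 3' UTR peak for 5.31% and 6.41%.

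The shared part was long: a median of 330 bases in both lists, and it covered the whole of the shorter peak in 71.8% of the members of each. Fewer than 10 bases were shared by 131 control and 150 shWTAP members. Just inside the rule, with 1 shared base, were control peaks at FAAP20, LINC01134 and EIF1AXP1 and shWTAP peaks at EIF1AXP1, LINC02811 and HIVEP3. Just outside, with a gap of 0, 1 and 4 bases, were control peaks at HMGB1P35, DENND10P1 and AC046130. On the shWTAP side the nearest were at RNF213, AP001189 and LINC01006, with gaps of 6, 7 and 8 bases. The median gap of all exon peaks without an overlap was 1251.5 bases in control, so those at the edge were unlike most of the peaks left out.

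Most of these exons did not belong to protein-coding genes. In the control list 47.9% of the members lay in an exon of a noncoding gene, 35.1% of a protein-coding gene and 15.0% of a pseudogene, and in the shWTAP list 47.4%, 35.8% and 14.8%. A class could be given to the exon's gene for 98.2% of the members, 66.5% through RefSeq and 31.7% through the gene descriptions of the deposited table. Overlapping 3' UTR peaks, classed by their assigned gene, were protein-coding for 84.1% in control, and overlapping 5' UTR peaks for 97.3%. An exon of a noncoding gene has no UTR annotation, so the contrast with the UTR classes follows in part from how peaks were annotated. Exon peaks without an overlap, which share that annotation, were 43.8% coding, 41.4% noncoding and 13.1% pseudogene in control.

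**Figure D1:**
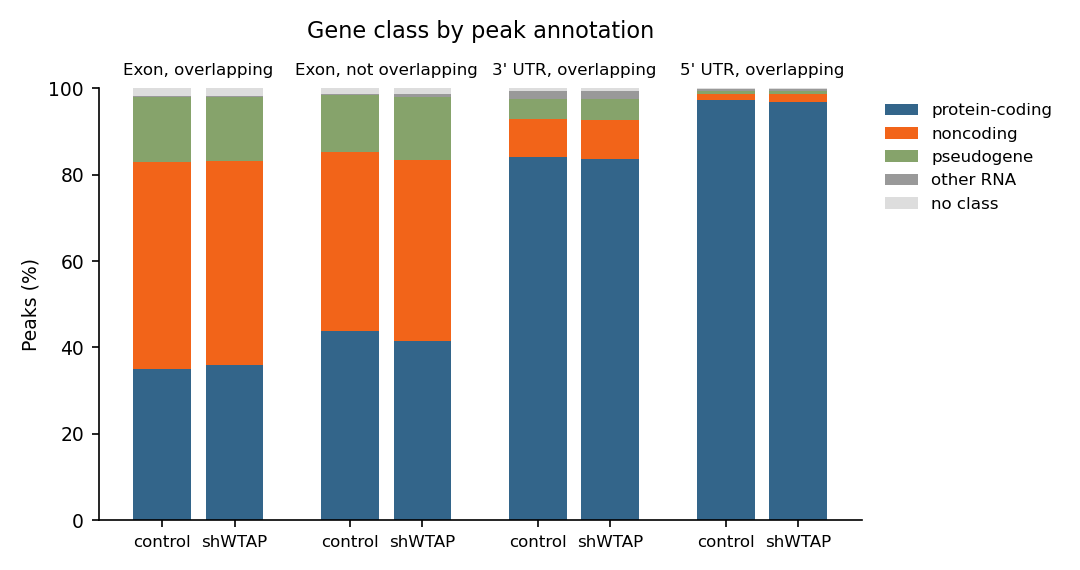
Share of peaks (y axis, percent) by class of gene, for overlapping exon peaks, exon peaks without an overlap and the overlapping UTR peaks of each list (bars, with 1 list per condition and no error bar). Noncoding genes hold 47.9% of the overlapping exon peaks of the control list, and protein-coding genes hold 84.1% of its overlapping 3' UTR peaks.

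Antisense genes alone, those named or described as such, held 20.33% of the control and 19.95% of the shWTAP members, 1953 and 1969 peaks. A member touched the span of a coding gene on the other strand, introns included, in 19.6% and 19.1%, and for members in noncoding exons in 33.0% and 32.5%. Whether these places lie in an exon or an intron of the coding gene was not checked. Members whose exon gene is not in the expression table counted as not touching. The lists give no strand of the peak itself, only of the assigned gene. At these places a peak on the antisense exon and a peak on the coding transcript cannot be told apart. Pseudogene exons are copies of other genes, and how reads that fit both were placed is not given in the sources used here, so those members are uncertain in the same way.

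Within protein-coding genes the members lay mostly inside the transcript. Of 3371 control members in coding exons, 59.2% were in an internal exon, 21.8% in the last of several, 15.5% in the first and 3.47% in the only exon. The shWTAP list had 58.2%, 21.2%, 16.9% and 3.65% of 3535. Coding exon peaks without an overlap were internal in 41.3% in control and 49.1% in shWTAP. Noncoding members had another order: 34.6% first, 29.8% last, 23.3% only and 12.2% internal exons in control, and 43.4% of the pseudogene members were in a single-exon transcript.

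Long internal exons are a known place of m6A, and part of the coding members in internal exons had long blocks. The rule favours long peaks, and exon peaks without an overlap were not counted in this way. Among members in an internal exon of their own coding gene, 644 of 1733 in control (37.2%) and 641 of 1764 in shWTAP (36.3%) had a block of at least 500 bases, and 204 in each list one of at least 1000 bases. The exon numbers that follow are those of the peak's annotation, and whether the largest block lies within that exon was not checked. The control blocks of most bases were in AHDC1 (4644 bases, exon 5), PLEC (4582 bases, exon 31) and KCNC4 (4136 bases, exon 2). In the shWTAP list they were in BOD1L1 (4144 bases, exon 7), KNL1 (4107 bases, exon 11) and CENPF (3404 bases, exon 10). KNL1 and CENPF are kinetochore proteins, and PLEC is the cytoskeletal linker plectin. SON, a large nuclear protein that supports splicing, was among the 6 of both lists. Its blocks had 3031 and 3091 bases in peaks annotated to exon 3, with an enrichment of 13.4 and 14.

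Members were longer than the exon peaks without an overlap, with a median of 449 exonic bases in control and 408.5 in shWTAP, against 181 and 180. A longer peak has more chance to touch another, so this follows in part from the rule. Overlapping 3' UTR peaks were longer still, at 599 and 539 bases. The deposited false discovery rate was above 0.05 for 12.2% of the control members, for 50.9% of the control exon peaks without an overlap and for 5.15% of the overlapping 3' UTR peaks. In shWTAP these shares were 10.5%, 44.1% and 3.8%.

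**Figure D2:**
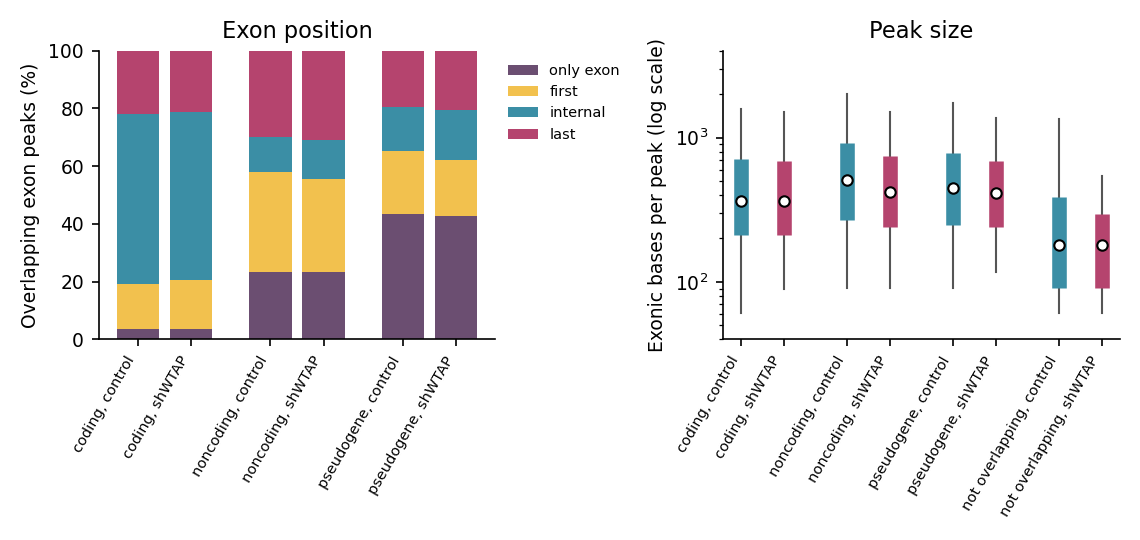
Left, share of overlapping exon peaks (percent) by position of the exon in its transcript, for each class of gene and list. Right, exonic bases per peak on a log scale, where dots are medians, thick bars quartiles and thin lines the 5th to 95th percentile; coding members are mostly internal and peaks without an overlap are shorter (median 181 bases in control).

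The fold enrichments, which are the authors' values, differed with the class of the exon. In the control list the median was 7.03 over all members, 4.54 in coding, 8.74 in noncoding and 8.39 in pseudogene exons, and in the shWTAP list 7.72, 5.35, 8.68 and 8.68. A ratio over input depends on the input level, and the genes differ in it. Of the assigned genes with members, the median FPKM (fragments scaled to length and library total) was 3.46 for coding, 0.214 for noncoding and 0.287 for pseudogenes. These FPKM values are classed by the assigned gene and the enrichments by the gene of the exon, which is not always the same gene. The part of the input level in the difference was not tested. For 4737 pairs of exon peaks with 1 partner each, the median was 6.77 in control and 7.46 in shWTAP. Of these, 511 had the same interval in both lists, the values of 80.9% were within 2-fold of each other, and Spearman's rho across the pairs was 0.752, as a description of peaks that share libraries. The values come from separate lists with no replicate, so a higher value in 1 list does not show more m6A.

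**Figure D3:**
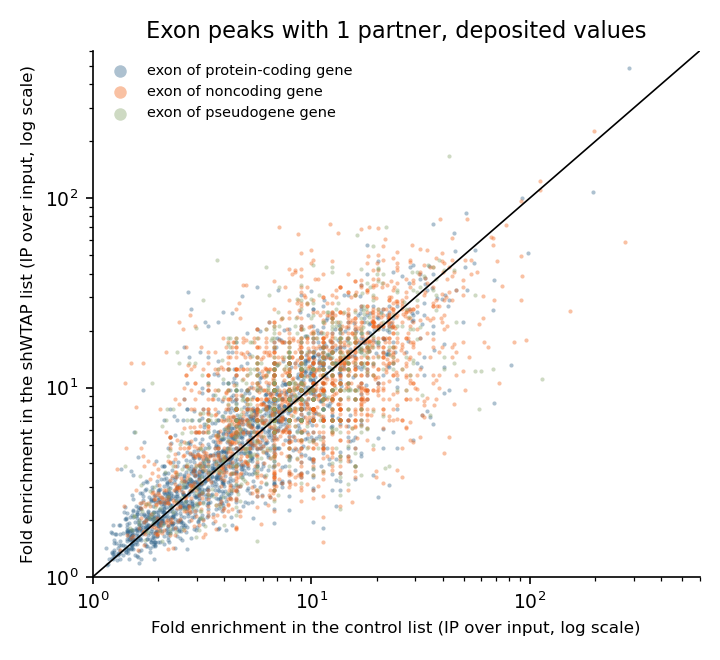
Deposited fold enrichment of 4737 pairs of exon peaks in the control list (x axis) and the shWTAP list (y axis), both ratios of IP over input on log scales, 1 point per pair coloured by the class of the exon's gene (34 pairs of no class and 12 of other RNA are not drawn). The line marks equal values, 80.9% of all pairs are within 2-fold, and coding exons reach to lower values, with a control median of 4.51 against 9.02 for noncoding exons.

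Among pairs assigned to a gene with a symbol and a mean input of at least 1 FPKM, ranked by the lower of both values, CRACD came first with an enrichment of 285 in control and 484 in shWTAP. CRACD encodes an inhibitor of actin capping protein, and its peak, chr4:56314188-56315297 in control, covers 1110 bases annotated to the last of 8 exons. MYO15B, a myosin gene, followed with 194 and 108 over 2221 bases annotated to exon 1 of 33. MYO1G, the class I myosin of blood cells, had 92.5 and 100 over 2007 bases annotated to exon 1 of 17. In each of these 3 genes the member peak covered over 1000 bases in both lists.

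NEAT1, the RNA scaffold of paraspeckles, had 178 and 80.8 over 2633 control bases of its exon 1, chr11:65422774-65425406. Its 4 members per list lie at 2 places, each listed as 2 overlapping peaks, and the other entry over exon 1 had 212 and 76.9. TRA2A, a splicing regulator, had 51.2 and 83.5 in exon 6 of 8, and AGAP2, a GTPase-activating protein of Arf, had 98.1 and 51.1 in exon 1 of 18. HCG11, a noncoding gene, had 51.9 and 77.2. The remaining 3 of the 10 lay in the exon of another gene than the one assigned: LRRC8B, a volume-regulated anion channel subunit, with its peak in AL596214, PURB, a DNA and RNA binding protein, with its peak in AC004854, and NUTM2B-AS1 with its peak in AL135925.

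Members were spread thinly over genes. The control members were assigned to 6505 genes, of which 4590 had 1 and 125 had 5 or more, and the shWTAP members to 6658, of which 4706 had 1 and 131 had 5 or more. The genes with most were noncoding: LINC00662 had 26 in each list, TTN-AS1 had 15 and 13, CCDC26 had 15 and 16 and KCNQ1OT1, an imprinted antisense RNA, had 15 and 16. LINC00963 had 11 and 12, with an enrichment of 1.53 to 24.4 in control and 1.65 to 28.5 in shWTAP. FAT4, an atypical cadherin, was the coding gene among the 10 with most, at 9 and 10 members in exons 2, 6, 9 and 10 of 18, and its mean input FPKM was 0.227 in control and 0.168 in shWTAP. KCNQ1OT1 had 0.278 and 0.255 FPKM, so many members can lie in a gene whose RNA is barely measured. Members that overlap another member of the same list were 13.7% of control and 13.5% of shWTAP members.

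The gene a peak was assigned to was often not the gene of the exon. The exon belonged to the assigned gene in 77.3% of the control and 77.6% of the shWTAP members. For several regulators of blood cells the peak lay in an overlapping noncoding gene. The members of FLI1, an ETS factor of blood progenitors, were in exons of AP001122 and of SENCR, an antisense noncoding RNA, and the SENCR peak of 1298 bases had an enrichment of 17.4 and 19.4. The member of SPI1, which encodes the myeloid factor PU.1, was in AC090559 with 10.5 and 12.4, that of MYC in CASC11 with 15.8 and 15.4, and that of CBLL1 in AC002467 with 16.2 and 17.8. The highest values of ASH1L (36.1 and 23.3) and JMJD1C (23.7 and 17.4), both modifiers of histone methylation, were on ASH1L-AS1 and JMJD1C-AS1. The peaks in exons of ASH1L itself had at most 1.95 and 2.19, and those in exons of JMJD1C at most 5.79 and 5.65.

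Counted by assigned gene, the lists of regulators differed in how many genes carried a member. Over all 11383 genes tested in the input, 21.7% had one in both lists. Of the 37 histone lysine methyltransferases and demethylases 26 did (70.3%), of the 24 regulators of DNA methylation and chromatin 13 (54.2%), and of the 20 genes of DNA damage and replication 8. Of 83 ribosomal protein genes 7 did (8.43%) and of 305 genes whose symbol starts with ZNF, antisense and divergent transcripts and pseudogenes included, 62 (20.3%). The genes of these lists differ in length and level, the part of which was not tested, and the lists were chosen with results of these data known.

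**Figure D4:**
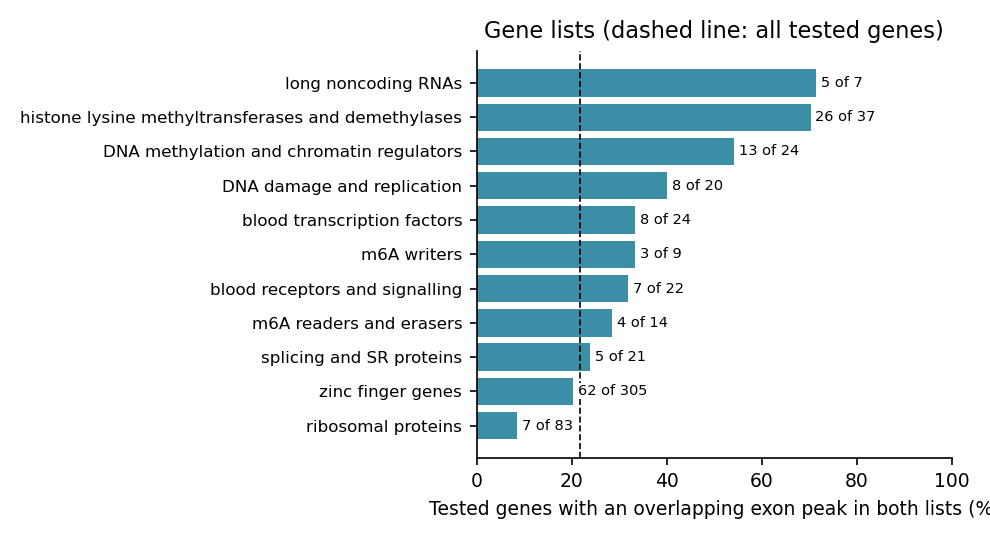
Share of the tested genes of each list that carry an overlapping exon peak in both lists (x axis, percent, bars), with the counts beside the bars; the zinc finger list is every symbol that starts with ZNF. The dashed line is the share of all tested genes, 21.7%, and the bars run from 8.43% for ribosomal proteins to 71.4% for the 7 long noncoding RNAs tested.

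SETD1B, a histone H3 lysine 4 methyltransferase, had 3 members in control and 2 in shWTAP, the highest 1705 and 1646 bases long with 17.3 and 18. DOT1L, the histone H3 lysine 79 methyltransferase, had 2 in each with at most 17.7 and 17.1. KDM4B, a histone demethylase, had 3 and 4, of which the highest covered 840 bases in each list with 8.86 and 5.55. Members thus recurred across these enzymes in both lists, at enrichments on either side of the median of all members.

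BCORL1, a transcriptional corepressor, had 2 in each list, the highest from exon 4 of 13 with 22.2 and 20.1. TET3, a DNA dioxygenase, had 3 members in each list with at most 40.6 and 12.9, and BRCA2, a repair protein, had 5 in each, in exons 10 and 11 among others, with at most 11.5 and 9.54. IGF2BP3, an m6A reader, had 2 and 3, with 33.3 and 35.2 at the highest. SRRM2, a splicing protein, had 5 and 6, the highest 481 bases with the same interval in both lists, chr16:2759775-2760255, at 22.8 and 26.9. HIF1A, the hypoxia factor, had 1 in each in exon 12 of 15 with 1.33 and 1.25, among the lowest of the members. METTL3, METTL14 and WTAP had no member, while VIRMA had 1 in each list (7.00 and 6.71, from exon 7 of 24 on) and ZC3H13 had 4 and 2 (at most 6.17 and 6.77).

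Input RNA was measured in 3 control and 3 shWTAP libraries, and WTAP itself served as the check of the labels. WTAP was at 11.5, 11.2 and 11.7 FPKM in control and at 6.97, 6.48 and 5.69 in shWTAP. The groups did not overlap, and limma gave a log2 change of -0.76 ± 0.080 (SE, n = 3 per group, adjusted p = 0.00663 over 11383 genes). The pseudocount of 1 FPKM shrinks the log2 changes of low genes. For a single gene with 3 libraries per group, p = 0.1 is the smallest that an exact permutation test allows, so each call rests on limma's model.

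Of the 7366 genes with a member in either list, 6519 were in the expression table and 3093 had at least 1 FPKM in at least 3 libraries. Of the genes in the table, 52.9% had a mean below 1 FPKM, beside 58.7% of all genes of the table, 57.9% of those with an exon peak without an overlap and no member and 33.1% of those with an overlapping 3' UTR peak. By limma at an adjusted p under 0.05, 98 of the 3093 were called, 29 higher and 69 lower in shWTAP, 3.17%, where 3.89% of all tested genes were called (1.48% higher and 2.42% lower). The share among genes with members was near that background. Their median log2 change was -0.034, beside -0.025 over all tested genes. With quantile normalization 158 were called, 71 of them higher, so the higher share was 29.6% as deposited and 44.9% after that scaling. Over all tested genes the higher share of the called genes also went up, from 37.9% to 48.7%. The share called after that scaling was 5.11% of the genes with members and 5.90% of all tested genes.

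The number of calls also moved when a single library was left out, among genes with members and among all tested genes. Without control 1, 2 or 3 the count with members was 11, 12 and 11, without shWTAP 2 or 3 it was 15 and 8, and without shWTAP 1 it was 702. The last is 22.7% of the genes with members, beside 24.2% of all tested genes. Without any other single library the shares were 0.259% to 0.485%, beside 0.404% to 0.712%. Control 3 and shWTAP 1 had a higher share of mitochondrial mRNA, 0.634% and 0.631% against 0.300% to 0.333% in the other 4. With those as a block the count was 470 (15.2%, beside 17.0% of all tested genes), and without both 784 (25.3%, beside 27.6%). These alternatives were chosen after seeing the data. Of the 20 genes named next by the size of their change, 17 lost their call under at least 1 alternative and none changed direction. In bulk RNA, fewer cells of a kind and less RNA per cell cannot be told apart.

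Among genes with members in both lists, the largest falls of coding genes included a pair of surface receptors and a transcription factor. ITGB1, the beta 1 integrin chain, was at 61.5, 58.1 and 64.7 FPKM in control and at 39.7, 31.4 and 31.3 in shWTAP. CD44, the hyaluronan receptor, was at 66.0, 64.8 and 67.9 against 46.7, 37.5 and 37.4. SOX4, a transcription factor of progenitor cells, was at 7.17, 8.36 and 9.42 against 5.08, 4.65 and 4.69. In all 3 every control library was above every shWTAP library. These genes were picked among called ones, so such separation follows in part from the choice. How many of all tested genes separate in this way was not counted. ITGB1 fell by 0.84 on the log2 scale (SE 0.103, limma adjusted p = 0.0116). CD44 fell by 0.70 (SE 0.095, limma adjusted p = 0.0146), and SOX4 fell by 0.67 (SE 0.098, limma adjusted p = 0.0178). The 2 member peaks of CD44 lay in its own internal exons, from exon 7 to 9 of 17, with at most 3.76 and 3.50. The member of ITGB1 lay in exon 1 of ITGB1-DT, 628 shared bases with 12.4 and 12.5, and that of SOX4 in exon 1 of a gene that the files do not name, so both were annotated to another transcript than the one that fell.

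SIPA1L2, of a family of GTPase-activating proteins of Rap, was at 3.96, 3.31 and 4.04 FPKM in control and at 2.12, 1.88 and 1.48 in shWTAP. It fell by 0.76 (SE 0.110, limma adjusted p = 0.0178), with its highest members, of 1316 and 868 bases, in its own exon 2 of 22, at 9.38 and 8.82, and no library of 1 group reached the other. FLI1 was at 24.0, 24.1 and 22.7 against 18.4, 17.4 and 17.8, and fell by 0.38 (SE 0.061, limma adjusted p = 0.0221). LINC00963, with 11 and 12 members in its own exons, was at 4.18, 3.87 and 4.42 against 2.82, 2.99 and 2.94, and fell by 0.40 (SE 0.072, limma adjusted p = 0.0347). These groups did not overlap either, but FLI1 lost its call in 6 of 14 alternatives (adjusted p up to 0.134) and LINC00963 in 7 of 13 (up to 0.157), the replicate block among them for both.

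The other falls named by the rule were of noncoding genes, pseudogenes and AGAP5. AL031727, a pseudogene, was at a mean of 5.35 ± 0.270 FPKM (SD, n = 3) in control and 2.37 ± 0.420 in shWTAP, the largest fall of those with members in both lists and at least 2 FPKM, -0.92 (limma adjusted p = 0.00687). AC099568, AL136126, AC008632, AGAP5 and PAN3-AS1 fell by 0.80, 0.77, 0.73, 0.70 and 0.66. Of these AL136126 is a pseudogene, the member of AGAP5 was in an exon of AC022400, and AGAP genes have close copies, so the levels of the pseudogenes and of AGAP5 are uncertain. By limma, noncoding genes with members gave 13 falls (3.00%) and no rise among 433 tested. At an unadjusted p under 0.05 they held 66 lower and 30 higher, beside 1548 and 1123 of all 11383 genes. Coding genes with members gave 27 rises (1.15%) and 49 falls (2.08%) among 2352. Over all tested genes 1.48% were called higher and 2.42% lower. The difference between these classes was not tested, and noncoding genes without members were not counted apart.

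On the higher side stood a mixed set. ICAM3, an adhesion molecule of leukocytes, was at 14.2, 13.9 and 12.1 FPKM in control and at 21.8, 23.9 and 23.4 in shWTAP. IDS, the lysosomal iduronate sulfatase, was at 3.21, 3.64 and 4.06 against 6.27, 6.08 and 6.72. APOBEC3G, a cytidine deaminase that restricts retroviruses, was at 4.49, 5.34 and 4.68 against 7.33, 7.58 and 8.12. Every shWTAP library was above every control library in all 3, which again follows in part from picking called genes. ICAM3 rose by 0.74 (SE 0.080, limma adjusted p = 0.00687). IDS rose by 0.67 (SE 0.087, limma adjusted p = 0.0134), and APOBEC3G rose by 0.57 (SE 0.080, limma adjusted p = 0.0154).

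Of the peaks of these genes, that of APOBEC3G was 837 bases in control and 568 in shWTAP, chr22:39080105-39080672, at 7.99 and 8.05, in an exon of the gene itself. That of ICAM3 was 1407 bases with 11.2 in control, annotated to AC114271, and 91 bases with 1.92 in shWTAP, annotated to ICAM3. The largest rise among genes with members in both lists and at least 2 FPKM in the higher group, of GXYLT1P3 (0.922 to 2.27 mean FPKM, a rise of 0.77, limma adjusted p = 0.00663), was of a pseudogene whose reads may be shared with its parent. TUBA1A, an alpha tubulin, rose by 0.63 (SE 0.108, limma adjusted p = 0.0277), but its members lay in exons of TUBA1C and AC011603. TMEM45A, PAM, CCDC88B, PCOLCE2 and LOX rose by 0.58, 0.54, 0.54, 0.52 and 0.46, all with members in their own exons. LOX crosslinks collagen, PCOLCE2 enhances procollagen processing and PAM amidates peptides. Beside these, the 3 fibroblast markers summed to 0 to 0.0167 FPKM in control and 0.159 to 0.369 in shWTAP, with COL1A1 listed at 0 in every control library, and their part in the result was not tested.

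**Figure D5:**
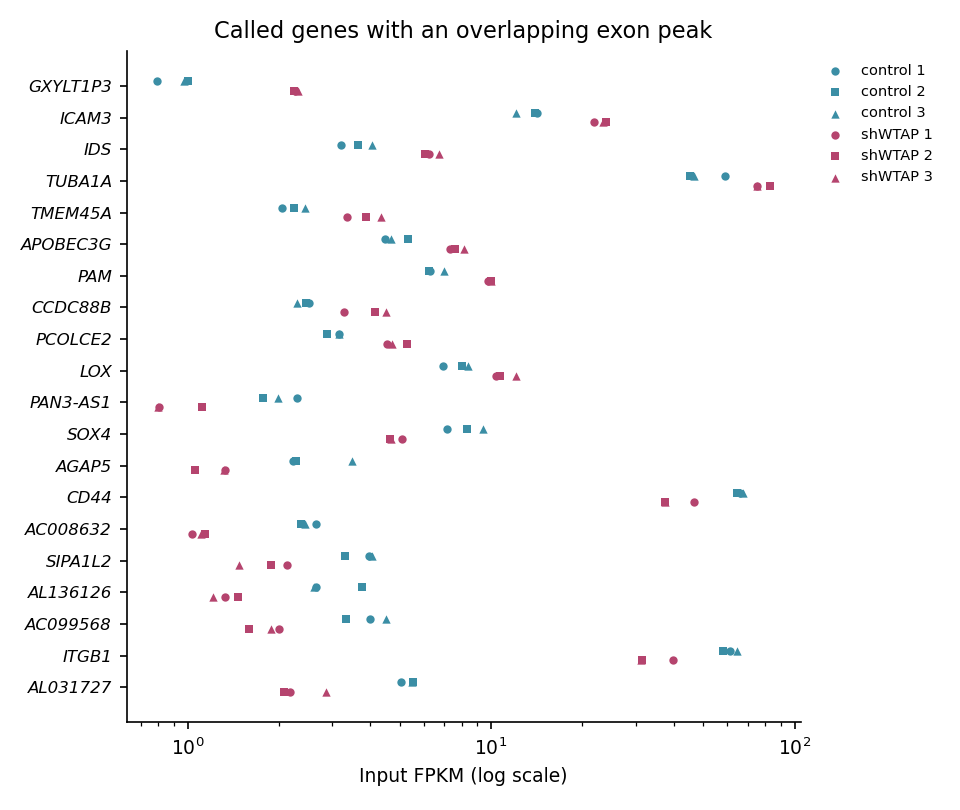
Input FPKM (x axis, log scale) of the 20 named genes with members in both lists, 1 point per library, control in blue and shWTAP in red, ordered by log2 change. In each gene the 3 libraries of 1 condition lie apart from the 3 of the other. The genes were picked among called ones, so this separation follows in part from the choice.

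Most genes with strong or many members were not called, which holds for the tested genes in general, of which 3.89% were called. NEAT1 was at 22.2, 21.5 and 24.4 FPKM in control and at 25.4, 26.4 and 29.1 in shWTAP, with a log2 difference of 0.24 ± 0.079 (SE, n = 3, limma adjusted p = 0.128). CRACD was at 4.61, 5.07 and 5.10 against 4.44, 4.21 and 4.03, a difference of -0.18 ± 0.071 (limma adjusted p = 0.181). In both genes the groups did not overlap, and the difference did not pass the threshold. NEAT1 passed it in 2 of 14 alternatives, without shWTAP 1 and without the libraries of high mitochondrial mRNA (limma adjusted p down to 0.0150). CRACD passed it in 0 of 13. The share of all tested genes whose groups do not overlap was not counted. MYC was at 119, 115 and 111 against 115, 121 and 113, and KDM4B at 5.14, 5.62 and 5.34 against 4.53, 5.71 and 6.21, with groups that overlap. HIF1A was at 19.9, 18.5 and 21.8 against 25.0, 21.3 and 22.2, which overlap as well.

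By number of members, 67 of 2109 genes with 1 were called (3.18%), 26 of 625 with 2 (4.16%) and 5 of 359 with 3 or more (1.39%), beside 3.89% of all tested genes. All 5 were lower, and at an unadjusted p under 0.05 the genes with 3 or more held 48 lower and 28 higher. By limma no gene with a member was called among 27 of the histone enzymes, 95 genes of the ZNF list, 9 ribosomal protein genes, 9 of DNA damage and replication and 6 of splicing. At an unadjusted p under 0.05 these lists held 6, 10, 1, 1 and 0, beside 2671 of all 11383 genes (23.5%). No gene with a member was called in the lists of writers, readers and erasers, blood receptors and signalling, and long noncoding RNAs either. At the unadjusted p these held 0 of 3, 2 of 6, 2 of 8 and 2 of 5. The blood transcription factors with members held 3 of 8, and the regulators of DNA methylation and chromatin 5 of 14. In the list of blood transcription factors 1 of 8 with members fell, FLI1, and in the list of DNA methylation and chromatin 1 of 14 fell, CHD7, by 0.66 (limma adjusted p = 0.0304). Of the 9 writers 2 fell, WTAP and RBM15, and neither had a member. CHD7 and RBM15 are named because the count is small, after their values were seen.

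The 6 input libraries listed 11216 to 11392 genes at 1 FPKM or more, their depth is unknown, and within a group Pearson's r across genes was 0.975 to 0.991. All 8 markers of Kasumi-1 identity, KIT and MPO among them, were at 1 FPKM or more, with sums of 2242 to 2295 in control and 2451 to 2501 in shWTAP. MPO (mean 1372 and 1526) and KIT (732 and 792) carried the sum, while the means of PTPRC (23.6 and 19.3), SPI1 (58.6 and 52.2), RUNX1T1 (17.6 and 14.8) and ELANE (1.52 and 1.28) were lower in shWTAP. Of 4 T cell markers CD3D alone reached 1 FPKM, at a mean of 50.2 in control and 53.1 in shWTAP, and of 4 epithelial markers EPCAM alone, at 41.5 and 42.5, both near the level of CD34 (50.7 and 55.7). Of 3 B cell markers CD79A alone did, at 1.98 and 2.38, and of 3 erythroid and 3 fibroblast markers none.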

How the data were processed

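The peak lists were deposited as 1 list for control and 1 for shWTAP, each with block positions, an annotation and an assigned gene. Each peak's enrichment (a ratio, IP divided by input), the log10 p-value and the log10 false discovery rate (a score) are the authors' values, per the file headers. FPKM values per gene for the 6 input libraries are as the authors deposited them. Tools listed without roles, per the submitters' processing notes, are HISAT2, fastp, ChIPseeker and HOMER. Not given in the sources used here are the peak caller, the genome build, pooling of replicates and counting by strand. Deposited microRNA gene positions equal those of RefSeq GRCh38.p14 for 510 of 513, so that build was used for sequences. IP values per gene were not analysed here.

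Peaks were intersected by block with bedtools 2.31.1, and 95% Wilson intervals cover counting error only. Positions are printed from 1. Expression was fitted with limma 3.58.1 in R 4.3.3 (trend), as shWTAP minus control, on log2 values of FPKM plus 1, in the 11383 genes with at least 1 FPKM in at least 3 libraries, with Benjamini-Hochberg adjustment over all of them. Depth is unknown, so no counting interval was set on FPKM. The fit was tested on simulated data. Named genes are the 10 strongest pairs, the 10 genes with most members, the 10 largest rises and falls with members in both lists and at least 2 FPKM, up to 4 genes of each list, and WTAP, METTL3, METTL14, KDM4B, HIF1A and MYC. Members and lists were chosen with earlier results of these data known. Replicate numbers did not pair libraries (r of same-numbered deviations -0.106, 0.167 and -0.144). Alternatives changed the pseudocount, the filter, the scaling, a block, single libraries, the overlap rule and the peak threshold.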

Additional observations from a re-analysis of the deposited data

How the results depend on the processing

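The 98 called genes with members became 14 with no filter on low values, 158 with quantile normalization and 158 with median centring. All called genes went from 443 to 82 with no filter and 672 with quantile normalization. Leaving out 1 library at a time gave 8 to 702 genes with members and 46 to 2751 of all genes. With the libraries of high mitochondrial mRNA as a block the counts were 470 and 1938, and without them 784 and 3142. With the replicate block they were 15 and 77, although the numbers do not pair the libraries. All 20 named risen and fallen genes kept their direction under every alternative that tested them, and ICAM3, GXYLT1P3 and AC008632 also kept their call, while 14 lost it under at least 5. The share of exon peaks that are members was 74.7% in control and 73.8% in shWTAP when 50% of the shorter peak had to overlap. It was 76.1% and 74.5% when the assigned genes of both peaks had to share a strand, which is not the strand of the peaks. Over the whole span it was 80.8% and 79.9%, and among peaks with a log10 false discovery rate of -2 or lower 85.6% and 82.7%. In that stricter set the members' median size was 506 and 475 bases and the median enrichment 7.70 and 8.52. Protein-coding exons were then 36.5% in control, and internal exons of all classes 31.7% and 32.1%. With 1 peak per gene the median size was 510 and 450 bases, the enrichment 8.97 and 9.08, and internal exons 27.1% and 28.5%. The sequencing depth is unknown, which leaves low genes with no counting error, and 1 list per condition leaves every peak without a replicate.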
